A study of Mus musculus with 6 samples.

Results

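The proteasome genes of the mouse heart were followed on 6 expression arrays, 3 from sham mice and 3 from tail-suspended mice. They were taken as every gene name on the array that starts with Psm, a letter from a to g and a number, and each gene was read by the brightest of its probes. This gave 49 genes, read by 61 probes, among 36163 gene names and 55681 probes. Of the 49 genes, 47 were well above background on all 6 arrays and were tested. The other two, Psma8, the alpha subunit of the testis, and Psmb11, the catalytic subunit of the thymus, were not well above background on any array. One of the 47, Psmc3ip, a meiotic recombination factor, matches the name pattern but is no proteasome subunit.

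RNA came from cardiac muscle of male C57BL/6 mice, and the labels name no transgene or drug in either group. The tail-suspension (TS) group was suspended by the tail for 28 days, a model of reduced loading of the hind limbs, and the sham group was housed alike without suspension. The labels give 10 weeks as the age at the start and 11 weeks as the age of every sample, and both are repeated here as they stand. Whether an array held the RNA of 1 mouse or of a pool is not stated in the sources used here, so p-values measure the spread between these samples.

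The proteasome degrades proteins that carry ubiquitin chains. Its 20S core is a barrel of alpha rings, which gate the entrance, and beta rings, which hold the cutting sites, and the 19S cap binds ubiquitin, unfolds the substrate with a ring of ATPases and removes the ubiquitin chain. In muscle and heart it turns over contractile and other proteins, and inflammatory signals exchange its cutting subunits for those of the immunoproteasome.

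The probe sequences are shown for the gene with the largest called fall in each class of core subunits: Psma4 for the alpha ring, Psmb2 for the beta ring, Psmc6 for the 19S ATPases and Psmd14 for the other 19S subunits. All 4 probes are 60 bases long, are printed as the scanner files give them and lie on the plus strand of mm9, at chr9:54802741-54804087 for Psma4, chr4:126361456-126364299 for Psmb2, chr14:45968533-45968592 for Psmc6 and chr2:61599058-61599117 for Psmd14. The spans of Psma4 and Psmb2 are longer than the probes, so these probes join separate stretches of the genome, as 10 of the 49 chosen probes do.
Psma4: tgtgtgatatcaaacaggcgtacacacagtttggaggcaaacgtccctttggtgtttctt
Psmb2: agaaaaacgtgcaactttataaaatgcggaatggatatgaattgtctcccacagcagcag
Psmc6: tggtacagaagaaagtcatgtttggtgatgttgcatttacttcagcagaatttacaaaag
Psmd14: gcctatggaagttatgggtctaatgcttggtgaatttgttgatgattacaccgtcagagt

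The arrays were measured on 1 slide in 1 scan, with 50.9% to 53.4% of probes well above background and no saturated spot. Row 1 of that slide held the 3 sham arrays with TS replicate 1, and row 2 held the other TS arrays. Correlations over probes were 0.994 to 0.996 within the sham group, 0.991 to 0.995 within the TS group and 0.978 to 0.984 between groups. A level below is the log2 of an array's intensity minus the log2 of that array's 75th percentile, so levels compare arrays for 1 gene and not genes with each other. In heart tissue a lower level of a transcript can mean less RNA per cell or fewer cells that carry it, and these cannot be told apart.

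The proteasome transcripts called in this comparison were all lower in TS hearts. In TS compared with sham hearts, 9 of the 47 tested genes fell and 0 rose (limma, adjusted p under 0.05). The adjustment was Benjamini-Hochberg over all 28032 probes tested. At an unadjusted limma p under 0.05, 16 of the 47 were lower and 2 higher. Of all 14197 genes tested, 3089 were lower and 2585 higher at that p. The 9 genes are 19.1% of those tested, where 11.2% of all 14197 genes tested were called lower and 10.3% were called higher. The share of lower proteasome genes was above that of all genes in 8 of 18 alternatives and below it in 10, among them normexp correction (8.51% against 10.9%), the replicate block (2.13% against 5.87%) and leaving out TS replicate 2 (8.51% against 9.97%) or TS replicate 1 (4.26% against 6.42%). The fallen genes were the alpha subunits Psma1, Psma2, Psma4 and Psma5, the beta subunit Psmb2, the 19S subunits Psmc6 and Psmd14, the activator Psme4 and the assembly chaperone Psmg3. The median difference was -0.18 (log2, TS minus sham) over the proteasome genes and -0.03 over all genes, and 35 of the 47, or 74.5%, were below 0, against 53.0% of all genes. All 3 TS arrays lay below all 3 sham arrays for 25 of the 47 proteasome genes (53.2%, against 25.8% of all genes). They lay above them for 3 of the 47 (6.38%, against 21.6% of all genes). No fold change of a called gene reversed under any alternative, but the count of lower genes was 0 without sham replicate 1, without sham replicate 2 and without TS replicate 3, and also 0 when the slide row entered the fit as a block.

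**Figure D1:**
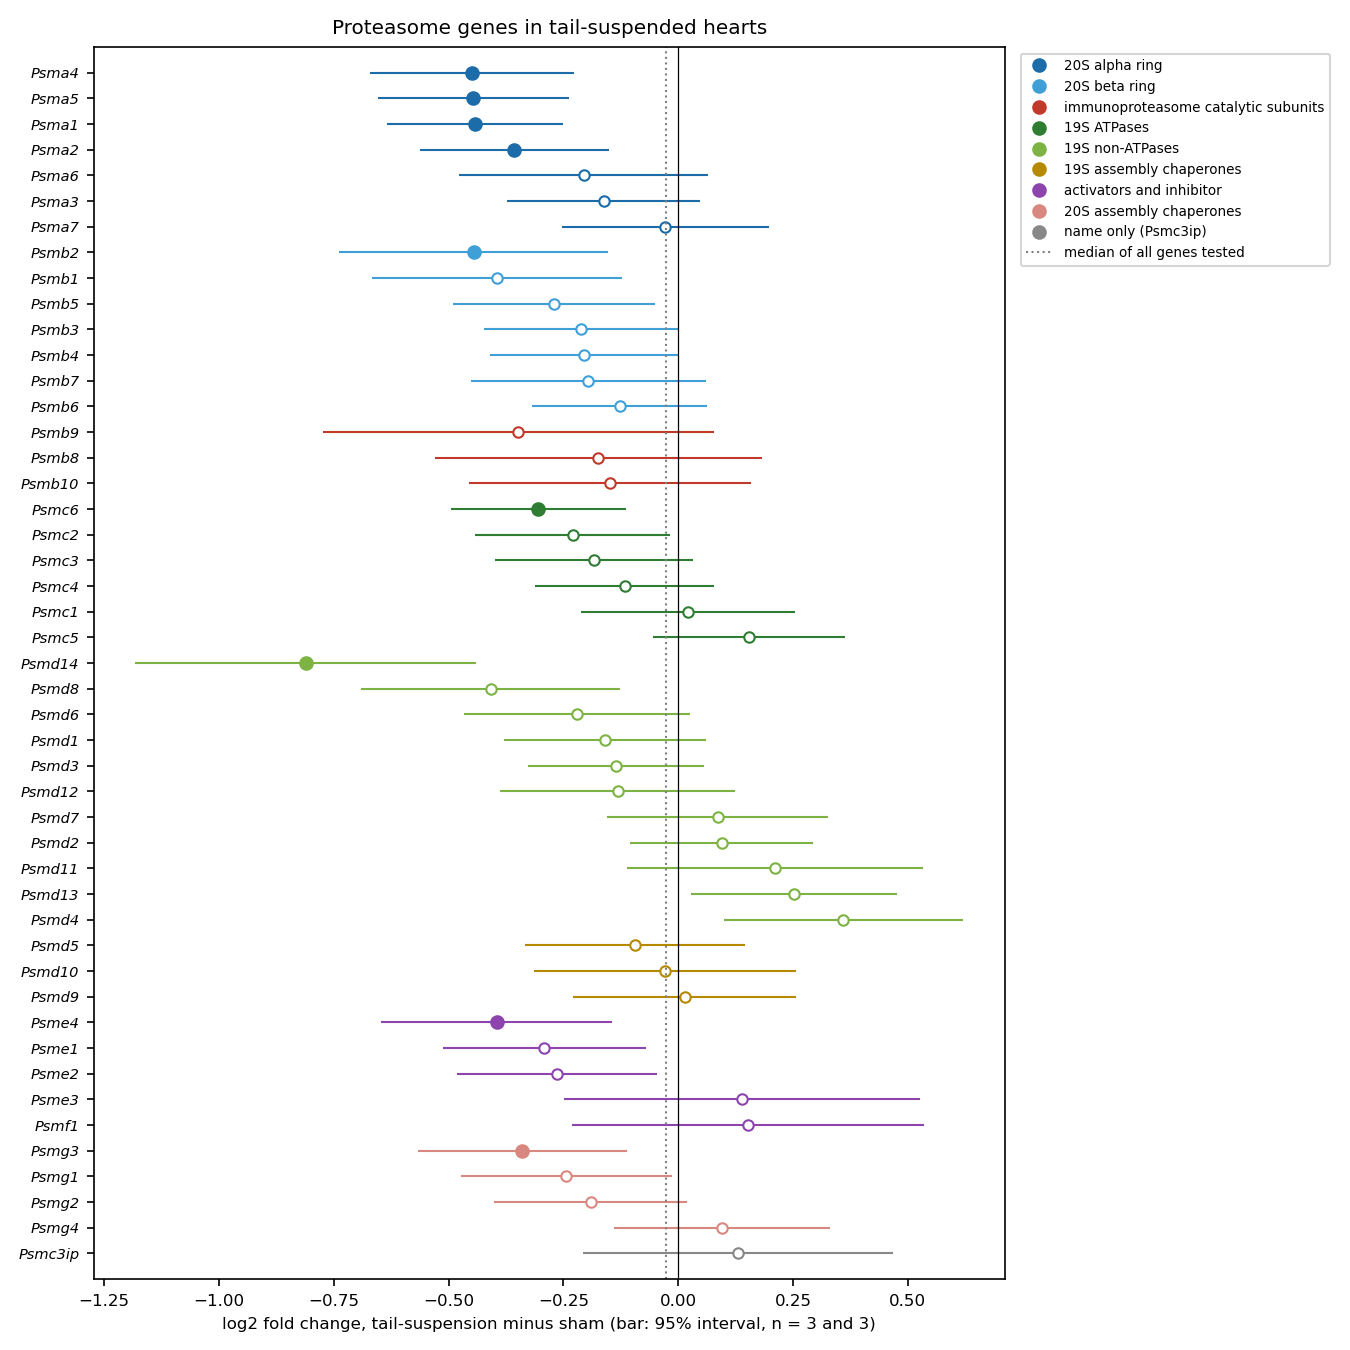
Log2 fold change of each tested proteasome gene, TS minus sham, with its 95% interval (3 arrays a group), coloured by role, with filled points for genes past the adjusted threshold and a dotted line at the median of all genes tested. All 14 constitutive 20S genes lie left of 0 (13 with normexp correction or without TS replicate 1). Psmd14 lies farthest left at -0.81, and Psmd4 lies farthest right at 0.36 without passing the threshold.

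Every gene of the constitutive 20S core was below 0 in the comparison of TS with sham hearts, against 53.0% of all genes. With normexp correction, and also without TS replicate 1, 13 of the 14 were. The 14 differences ran from -0.45 to -0.03 (log2) with a median of -0.24. Of these genes 5 fell (35.7%, against 11.2% of all genes). All TS arrays lay below all sham arrays for 11 of them (78.6%, against 25.8% of all genes). In the alpha ring, whose subunits form the gate, 4 of 7 genes fell (57.1%, against 11.2%) and the median was -0.36. The level of Psma4 was 3.85, 3.87 and 3.68 in the sham hearts and 3.39, 3.38 and 3.28 in the TS hearts. The groups were apart, and sham replicate 3 was the sham array nearest to the TS arrays. Psma4 fell by 0.45 on the log2 scale, which is to say that it fell by 26.7% (SE 0.09, limma adjusted p = 0.0227), and its second probe fell by 0.37 (adjusted p = 0.0302).

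Psma5 stood at 4.21, 4.23 and 4.13 in sham and at 3.68, 3.83 and 3.72 in TS hearts. Psma1 stood at 5.19, 5.21 and 5.16 in sham and at 4.78, 4.78 and 4.68 in TS hearts, with a spread in sham (SD 0.02) far under the gap between groups. Both groups were apart for each of these alpha subunits. Psma5 fell by 0.45 (SE 0.09, limma adjusted p = 0.0191) and Psma1 fell by 0.44 (SE 0.08, adjusted p = 0.0158). Psma2, the remaining alpha subunit past the threshold, was at 6.15, 6.23 and 6.10 in sham and at 5.87, 5.73 and 5.81 in TS hearts, and fell by 0.36 (SE 0.09, adjusted p = 0.0336). Of the other alpha genes, Psma3 (-0.16) had separate groups, and Psma6 (-0.21) and Psma7 (-0.03) overlapped.

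**Figure D2:**
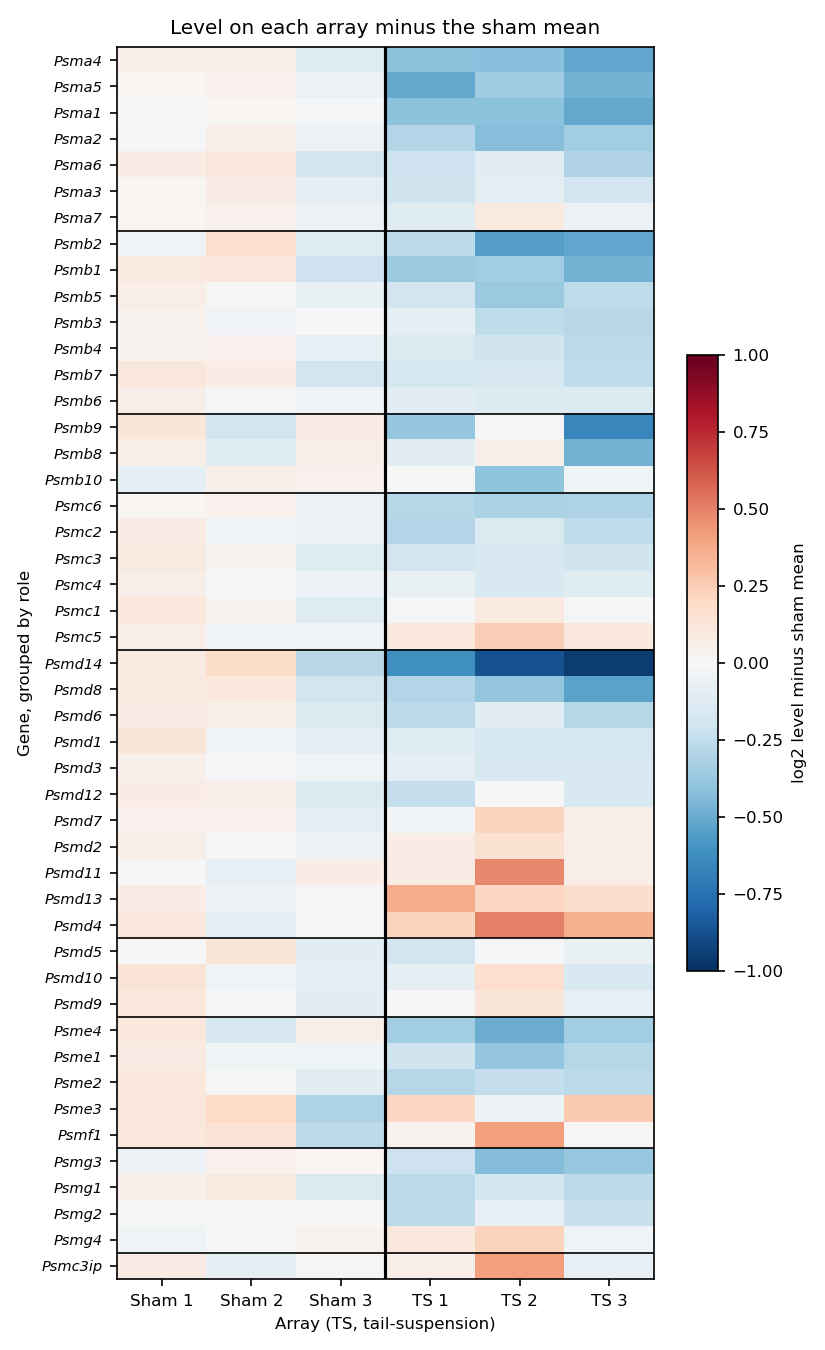
Log2 level of each tested proteasome gene on each array minus that gene's mean over the 3 sham arrays, with genes grouped by role and colours from -1 (blue) to 1 (red). The alpha and beta ring genes are blue on the TS arrays apart from Psma7 on TS replicate 2, and Psmd4 and Psmd13 are red on all 3.

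In the beta ring, 1 of 7 genes fell (14.3%, near the 11.2% of all genes), and the median was -0.21. All 7 were below the sham mean on every TS array. Psmb2, a beta subunit without a cutting site, was at 1.76, 1.96 and 1.67 in sham and at 1.53, 1.25 and 1.28 in TS hearts. TS replicate 1 lay nearest to the sham arrays, and the groups did not overlap. Psmb2 fell by 0.45 (SE 0.12, limma adjusted p = 0.0466). Psmb1, another beta subunit without a cutting site, was named after its values were seen, with a difference of -0.39 that just missed the threshold (adjusted p = 0.0532).

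None of the 3 constitutive cutting subunits passed the threshold (limma), and 1, Psmb5, had an unadjusted p under 0.05. Psmb5, the chymotrypsin-like subunit, was at 7.39, 7.34 and 7.25 in sham and at 7.14, 6.96 and 7.07 in TS hearts, a difference of -0.27 (SE 0.09, limma adjusted p = 0.0818). Psmb6, the caspase-like subunit, was at 6.88, 6.81 and 6.78 in sham and at 6.72, 6.69 and 6.69 in TS hearts, a difference of -0.13 (SE 0.08, adjusted p = 0.286). For both genes every TS array lay below every sham array. Psmb7, the trypsin-like subunit, was at 4.85, 4.82 and 4.55 in sham and at 4.57, 4.58 and 4.49 in TS hearts, so that sham replicate 3 lay among the TS arrays and the difference was -0.20 (SE 0.11, adjusted p = 0.228).

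None of the 3 immunoproteasome subunits, which take the place of those cutting subunits, passed the threshold (limma), 0 had an unadjusted p under 0.05, and all 3 had overlapping groups. Psmb8, which replaces Psmb5, was at 2.21, 2.03 and 2.22 in sham and at 2.04, 2.21 and 1.68 in TS hearts, a difference of -0.17 (SE 0.15, adjusted p = 0.433). TS replicate 3 was low and TS replicate 2 was at the sham level. Psmb9, which replaces Psmb6, had the same order of TS arrays, with 2.10, 1.80 and 2.06 in sham, 1.60, 1.98 and 1.34 in TS hearts and a difference of -0.35 (SE 0.18, adjusted p = 0.201). Psmb10, which replaces Psmb7, was at 5.15, 5.29 and 5.28 in sham and at 5.24, 4.84 and 5.19 in TS hearts, where only TS replicate 2 was low (difference -0.15, SE 0.13, adjusted p = 0.438).

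Whether an immunoproteasome subunit and the subunit it replaces changed by different amounts was tested for these 3 pairs with the difference of their levels on each array. The change of Psmb8 minus that of Psmb5 was 0.10 (95% interval -0.46 to 0.66, exact two-sided permutation p = 0.7). For Psmb9 minus Psmb6 it was -0.22 (interval -0.79 to 0.35, exact p = 0.4), and for Psmb10 minus Psmb7 it was 0.05 (interval -0.48 to 0.58, exact p = 1). The smallest p that 3 against 3 arrays can give is 0.1, so no pair could pass a threshold of 0.05, and the intervals leave room for unequal changes in both directions.

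**Figure D3:**
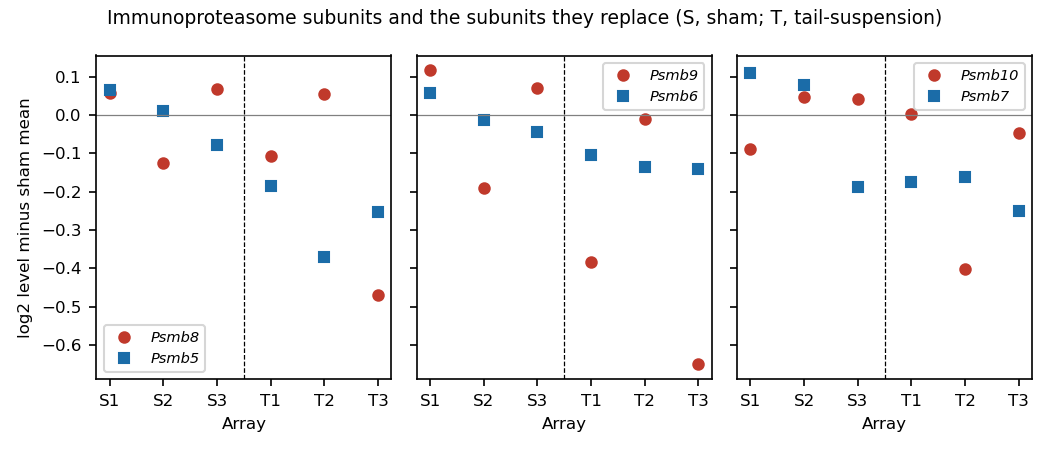
Log2 level minus the sham mean on each array (S1 to S3 sham, T1 to T3 TS) for each immunoproteasome subunit (circles) and the constitutive subunit it replaces (squares). The squares lie below 0 on all TS arrays, and the circles are spread on the TS arrays, with Psmb8 and Psmb9 lowest on TS replicate 3 and Psmb10 lowest on TS replicate 2.

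The 19S cap had calls at about the share of all genes. Of its 17 subunit genes, 2 fell (11.8%, against 11.2% of all genes), 0 rose and 10 were below 0 (58.8%, against 53.0%). The median was -0.13, or -0.068 with normexp correction. At an unadjusted limma p under 0.05, 4 of the 17 were lower and 2 higher. Of all 14197 genes tested, 3089 were lower and 2585 higher at that p. Among the 6 ATPases, which unfold the substrate, Psmc6 fell. It was at 3.39, 3.41 and 3.31 in sham and at 3.09, 3.05 and 3.06 in TS hearts, with the TS arrays close together and all under the sham arrays. Psmc6 fell by 0.30 (SE 0.08, limma adjusted p = 0.0412). The other ATPases ranged from -0.23 for Psmc2 (adjusted p = 0.111) to 0.15 for Psmc5 (adjusted p = 0.245).

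Psmd14, the deubiquitinase of the 19S lid that cuts the ubiquitin chain from the substrate, had the largest fold change of the 47 genes. Its level was 1.79, 1.88 and 1.41 in the sham hearts and 1.08, 0.82 and 0.74 in the TS hearts. The lowest sham array, replicate 3, still lay above the highest TS array, replicate 1. Psmd14 fell by 0.81 on the log2 scale, which is to say that it fell by 43.0% (95% interval -1.18 to -0.44, SE 0.16, limma adjusted p = 0.018). The next lowest 19S gene, the lid subunit Psmd8, named after its values were seen, had a difference of -0.41 and missed the threshold (adjusted p = 0.0534).

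On the other side of 0 stood the ubiquitin receptor Psmd4 and the lid subunit Psmd13, also named after their values were seen. Psmd4 was at 6.26, 6.06 and 6.14 in sham and at 6.37, 6.65 and 6.51 in TS hearts, a difference of 0.36 (SE 0.11, limma adjusted p = 0.0612). Psmd13 was at 3.98, 3.85 and 3.88 in sham and at 4.27, 4.11 and 4.08 in TS hearts, a difference of 0.25 (SE 0.09, adjusted p = 0.10). Every TS array lay above every sham array for both genes and for Psmc5, and for no other proteasome gene. The 3 chaperones that assemble the cap, Psmd5, Psmd9 and Psmd10, lay between -0.09 and 0.01, with overlapping groups and 0 calls (limma, 0 at an unadjusted p under 0.05).

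Among the activators, Psme4, which encodes PA200, fell. It was at 2.27, 2.01 and 2.22 in sham and at 1.82, 1.67 and 1.82 in TS hearts, with sham replicate 2 nearest to the TS arrays and no overlap. Psme4 fell by 0.40 (SE 0.11, limma adjusted p = 0.0434), and its second probe, which was dimmer, fell by 0.59 (adjusted p = 0.0163). The PA28 subunits Psme1 and Psme2, known for their induction by interferon, had separate groups and differences of -0.29 (adjusted p = 0.0679) and -0.26 (adjusted p = 0.0843). Psme1 was read by 10 spots of 1 probe on each array, and the SD between these spots was 0.011 to 0.046, smaller than the SD between replicates. Psme3, the nuclear PA28 subunit, was at 0.14 and the inhibitor Psmf1 at 0.15, both with overlapping groups.

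The chaperones that build the 20S core were below 0 in 3 of 4 genes, where 53.0% of all genes were. Psmg3 was at 1.92, 2.03 and 2.00 in sham and at 1.77, 1.55 and 1.61 in TS hearts, with TS replicate 1 nearest to sham and no overlap. Psmg3 fell by 0.34 (SE 0.10, limma adjusted p = 0.0493), just past the threshold. Psmg1 (-0.24, adjusted p = 0.116) and Psmg2 (-0.19, adjusted p = 0.162) had separate groups without a call, and Psmg4 was at 0.09. Psmc3ip, which shares only the name, was at 0.13 (adjusted p = 0.533).

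**Figure D4:**
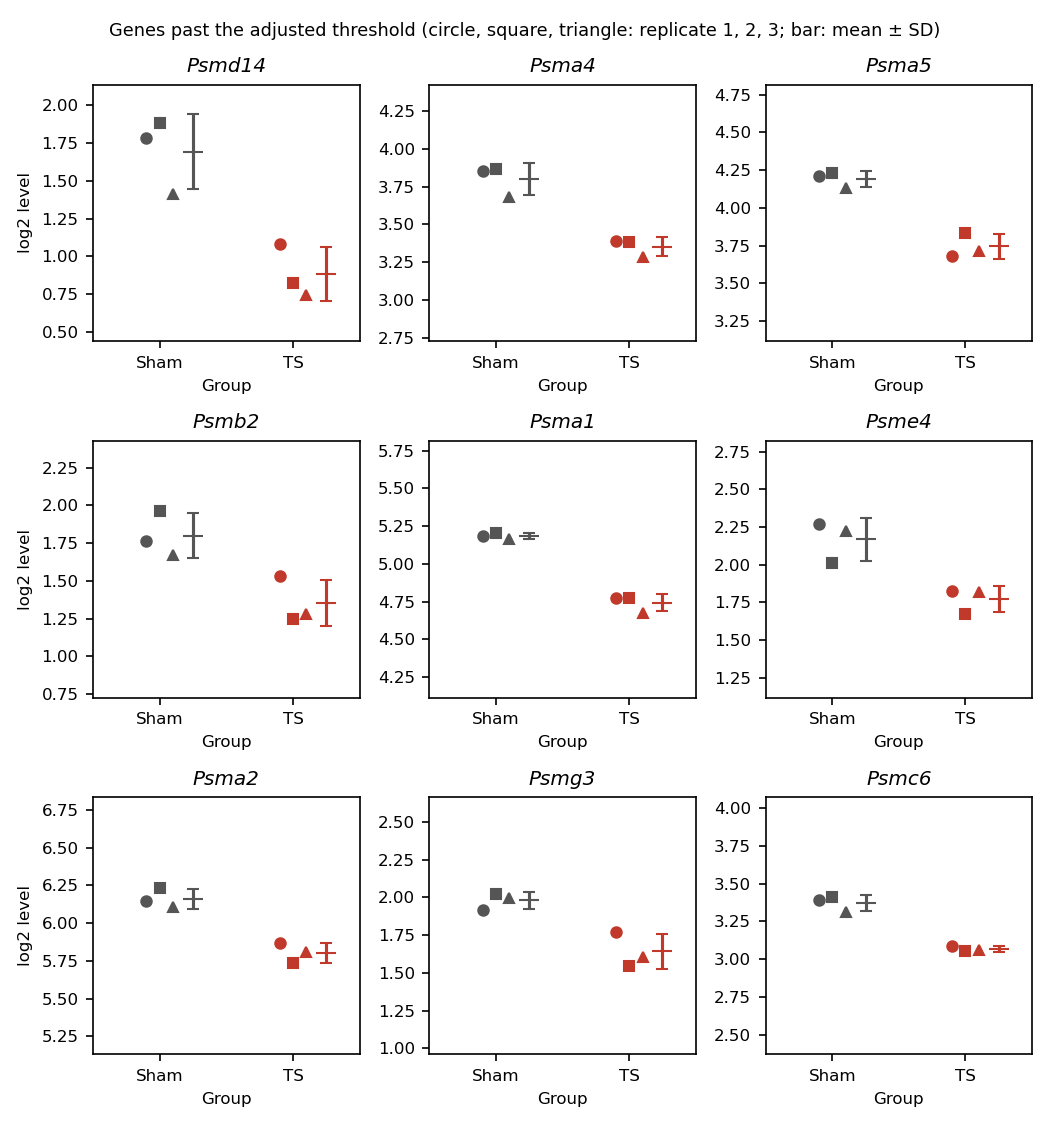
Log2 level on each array for the 9 genes past the adjusted threshold, with circle, square and triangle for replicates 1, 2 and 3, bars for the mean ± SD of 3 arrays, and axes of equal height. Every TS point lies under every sham point in all 9 panels, and the difference between the means is largest for Psmd14. The 9 genes were called on these same arrays, so their separation is no further evidence.

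The lower levels were seen on each TS array. TS replicates 1, 2 and 3 lay below all sham arrays for 32, 26 and 34 of the 47 genes. The shares of all genes were 37.8%, 40.0% and 41.5%. All 9 called genes were among them on every array, but they were called on these same arrays, so this adds no support. The same limit holds for their values within row 1 of the slide, given below. The median of the 14 constitutive 20S genes, relative to the sham mean, was -0.20, -0.30 and -0.29 on the 3 TS arrays, and it was 0.04, 0.06 and -0.08 on the sham arrays. Sham replicate 3 was the lowest sham array for this class, with all 14 genes under the sham mean. Within row 1 of the slide, where TS replicate 1 was set against the 3 sham arrays, Psmd14 differed by -0.61, Psma5 by -0.51, Psma1 and Psma4 by -0.41 each, Psme4 by -0.34, Psma2 by -0.29, Psmc6 by -0.28, Psmb2 by -0.27 and Psmg3 by -0.21. With the row as a block the fold changes were these same values and 0 genes passed the threshold (limma adjusted p from 0.119 to 0.389 for the 9, and 4 of the 47 genes lower at an unadjusted p under 0.05). Row 2 held no sham array, so it gave no value of its own.

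Probes of the same gene mostly had the same sign. Of the 11 genes with more than 1 probe, 9 had probes of 1 sign and 0 had probes with different calls. The 2 exceptions were Psmd9 (0.01 and -0.05) and the ATPase Psmc3, whose brighter probe was at -0.18 (limma adjusted p = 0.187) and whose dimmer probe was at 0.20 (adjusted p = 0.136), both with separate groups. RefSeq lists named copies of several members (Psma5-ps, Psmb5-ps, Psmb6-ps, Psmb6-ps2, Psmb7-ps1, Psmb7-ps2 and Psme2b), and whether the probes also bind their transcripts was not tested.

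Promoter windows of 250 bases before the start, from the RefSeq table on GRCm38.p6, were held for 41 of the proteasome genes and for 8 of the 9 called genes. They were searched on both strands for 2 motifs, neither of which holds the other, TGACNNNGC, the core of the antioxidant response element that NRF factors bind, and CCAAT. A proteasome gene was counted once if any of its windows held the motif, while the background counts single windows, so the shares use unlike units. The first was found in 5 of 41 proteasome genes (Psmb5, Psmb6, Psmc6, Psmd9 and Psmd12), or 12.2%, against 10.2% of all 32851 windows, and in 1 of the 8 called genes, Psmc6. CCAAT was found in 15 of 41, or 36.6%, against 33.8% of all windows, and in 3 of the 8 called genes, Psma1, Psma2 and Psmd14. Of the 11 constitutive 20S genes with a window, 2 (18.2%) held the first motif and 6 (54.5%) held CCAAT. Whether any of these shares differs from that of all windows was not tested. The Psmc6 window, chr14:45329574-45329823 on the plus strand, is shown as the single called gene with the first motif, which stands in capitals as read on the opposite strand.
Psmc6 promoter: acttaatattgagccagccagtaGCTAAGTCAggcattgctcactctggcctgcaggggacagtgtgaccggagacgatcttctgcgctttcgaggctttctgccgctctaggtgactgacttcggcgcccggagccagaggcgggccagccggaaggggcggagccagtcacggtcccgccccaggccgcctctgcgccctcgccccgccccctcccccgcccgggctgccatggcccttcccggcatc

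Of 21 tested genes that work with the proteasome (receptors, deubiquitinases, assembly and regulatory factors), 2 rose and 2 fell, or 9.52% each, which is near the 10.3% and 11.2% of all genes, and the median was -0.07. Uchl5, a deubiquitinase that docks on the cap, rose from 2.66 ± 0.06 to 3.03 ± 0.08 (mean ± SD, n = 3 each, limma adjusted p = 0.0331). Ddi2, a protease that activates the proteasome gene regulator NRF1, rose from 0.18 ± 0.16 to 0.66 ± 0.08 (limma adjusted p = 0.0297, n = 3 each). Zfand2a, which encodes an arsenite-inducible protein that binds the proteasome, fell by 0.59 (adjusted p = 0.0086), and the ubiquitin ligase Ube3c fell by 0.32 (adjusted p = 0.0424). Nfe2l1, which encodes NRF1, differed by -0.45 and missed the threshold (adjusted p = 0.0546), with TS arrays all below sham arrays, and the core maturation factor Pomp differed by -0.24 with overlapping groups (adjusted p = 0.179).

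Upstream of the proteasome, 1 of 7 ubiquitin and E1 genes fell (14.3%, against 11.2% of all genes) and 0 rose. It was Uba7, the activating enzyme of the ubiquitin-like ISG15, from 2.54 ± 0.02 to 2.06 ± 0.10 (limma adjusted p = 0.0162, n = 3 each). Of 13 ubiquitin ligases known from muscle atrophy, 2 rose (15.4%, against 10.3% of all genes) and 0 fell, namely Cblb by 0.61 (adjusted p = 0.0107) and the sarcomeric ligase Trim54 by 0.64 (adjusted p = 0.0184). Of the 13, 7 were above 0 and 6 below. Trim63, which encodes MuRF1, was at 5.16 ± 0.01 in sham and 5.09 ± 0.38 in TS hearts (n = 3 each), a difference of -0.07 with a 95% interval of -0.52 to 0.37 (limma adjusted p = 0.798). With its tested probes averaged the difference was -0.21 (limma adjusted p = 0.586). It was -0.29 without TS replicate 2, 0.021 without TS replicate 1 and 0.050 without TS replicate 3. The ligase Fbxo32, named after its values were seen, differed by 0.64 and missed the threshold (limma adjusted p = 0.0697). Its TS arrays all lay above its sham arrays. Of 12 antigen processing genes, which work with the immunoproteasome, 1 fell (8.33%, against 11.2%) and 0 rose, and it was B2m, the light chain of class I molecules, by 0.46 (adjusted p = 0.048).

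Cell type markers were read beside these results. All 10 cardiomyocyte markers were well above background on every array. Of these, 9 were below 0 (53.0% of all genes were), with a median of -0.13. Of the 10, 1 fell (10%, against 11.2% of all genes), the cardiac actin Actc1 (difference -0.33, limma adjusted p = 0.0371). Their summed level, as intensity relative to the 75th percentile, was 5685 to 6076 on the sham arrays and 5229 to 5331 on the TS arrays, without overlap. The median of these markers was -0.027 with quantile normalization, -0.021 in the authors' table and -0.059 with normexp correction. That of the 14 constitutive 20S genes was -0.34, -0.29 and -0.19 there. Under the other alternatives the marker median was -0.16 to -0.11 and the 20S median -0.30 to -0.20. The sum was 63.6 to 68.9 against 56.9 to 69.5 for leukocyte markers, 48.4 to 52.9 against 58.2 to 61.7 for endothelial markers, 234 to 253 against 257 to 309 for fibroblast markers, and 430 to 696 against 107 to 345 for red cell markers. Endothelial and fibroblast sums were thus higher, and red cell sums lower, on every TS array than on any sham array, and leukocyte sums overlapped. A sum follows its brightest genes and does not stand for the whole list. In both the endothelial and the fibroblast list 2 genes were above 0 and 3 below, with medians of -0.23 and -0.04. Vwf was at 0.99 and Kdr at -0.55, and Dcn, the brightest fibroblast marker, was at 0.34 and Col3a1 at -1.88. Of the tested markers, 1 of 9 leukocyte genes rose (11.1%) and 3 fell (33.3%). Of 5 endothelial genes, 1 rose and 1 fell (20% each), 1 of 5 fibroblast genes fell (20%), and 1 of 4 red cell genes fell (25%). Of all genes tested, 10.3% were called higher and 11.2% lower. No marker read here was at 0, and Cd68 of the leukocyte list did not pass the background filter. The part of cell composition in the lower proteasome levels was not tested.

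**Figure D5:**
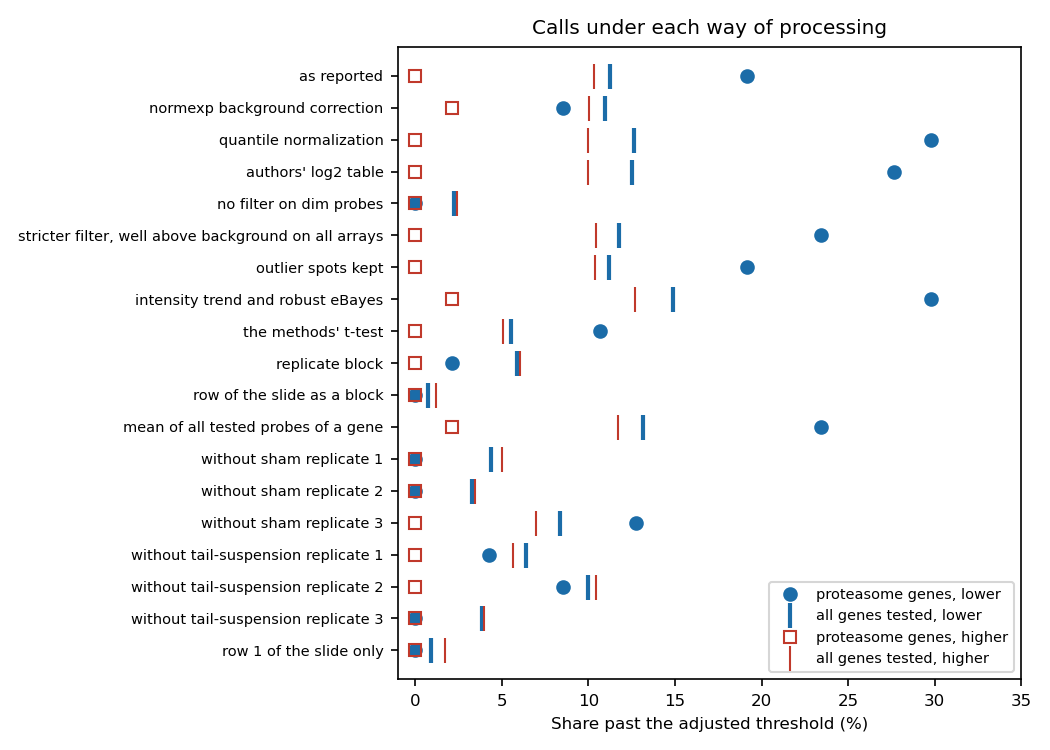
Share of genes past the adjusted threshold under each way of processing, with circles and squares for proteasome genes lower and higher, and blue and red lines for all genes tested lower and higher. The share of lower proteasome genes runs from 0% to 29.8%, above that of all genes as reported and in 8 of the 18 alternatives, and below it in the other 10.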

How the data were processed

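Cy3-labelled cRNA of 6 heart RNA samples was hybridised to 1-colour Agilent arrays. The authors extracted each array's spots with Agilent Feature Extraction 10.7.1.1, and the deposited scanner files hold processed signal intensity per spot, already background-corrected. A deposited table of the authors' log2 values of the same arrays, with normalization not stated in the sources used here, served as an alternative. Its columns had medians of 4.33, correlated with log2 processed intensity at 0.9991 to 0.9993 and, once sorted, differed by at most 0.117, so scale and direction follow the scanner values while the tool that levelled the arrays stays unknown.

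Controls and outlier-flagged spots were dropped, and repeat spots of a probe were averaged. The log2 intensity minus each array's 75th percentile was tested with limma 3.58.1 in R 4.3.3 (lmFit, eBayes) on 28032 probes, each well above background on all 3 arrays of the sham or of the TS group, with Benjamini-Hochberg adjustment over all of them and a threshold of 0.05. Background shares use 14197 tested genes, 1 probe per gene, with names matched in RefSeq. Shares of arrays lying apart use the 14182 of them with a value on every array. The number of arrays limits the precision. Pairs were tested with an exact permutation test. The limma fit and the t-test, but not the other steps, were tested on simulated levels.

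Members, gene lists and tests were chosen with earlier results of these data known. By rule, values on every array are given for Psmb5 to Psmb10 and for up to 3 called genes per class and direction, up to 4 called genes are named per other list, and Trim63, Nfe2l1 and Pomp are always given. Psma2 was added after its values were seen. Alternatives covered background correction, normalization, the authors' table, the background filter, outlier spots, the variance model, the methods' t-test, a replicate block, the slide row, the choice of probe and each array left out in turn. One marker of the red cell list is not reported here and is in no sum.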

Additional observations from a re-analysis of the deposited data

How the results depend on the processing

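The fold changes of the 9 called genes kept their sign under all 18 alternatives, and 14 of 14 constitutive 20S genes stayed below 0 under all but normexp correction and leaving out TS replicate 1, with 13 each. The count of lower proteasome genes, 9 as reported, was 4 with normexp (1 higher), 14 with quantile normalization, 14 with an intensity trend and robust variance (1 higher), 5 with the methods' t-test (24 at an unadjusted p under 0.05) and 0 without the background filter (limma, 14 unadjusted). Of all genes, 2874 of 14197 were lower unadjusted with the t-test, and 2912 of 21938 without the filter (limma). Averaging a gene's probes gave 1 higher gene. Psmd4 was the higher gene each time. All genes counted 1464 higher and 1596 lower as reported, 522 and 484 without the filter, and 720 and 784 with the t-test. Deviations of same-numbered arrays from their group means correlated at -0.020, -0.018 and 0.050, so the replicate numbers were not taken as a pairing. With the replicate number as a block, 1 proteasome gene was lower (Psmd14), and 862 and 833 of all genes were higher and lower. With the slide row as a block, 0 proteasome genes and 171 and 104 of all genes were called (4 proteasome genes lower unadjusted), and within row 1 alone, an alternative chosen after seeing the data, 0 and 254 and 131. Leaving out 1 array gave 0 to 6 lower and 0 higher proteasome genes. Of all genes, it gave 493 to 1504 higher and 469 to 1435 lower. The lower proteasome count was 0 without sham replicate 1, sham replicate 2 or TS replicate 3 (limma, 11, 12 and 12 unadjusted). Of all genes, 2342 of 14287, 2207 of 14253 and 2319 of 14274 were lower unadjusted in those fits. The lower proteasome count was 2 without TS replicate 1 and 4 without TS replicate 2. Of the 18 alternatives, Psma1 and Psmd14 passed the threshold in 11, Psma4 and Psma5 in 10, Psma2 and Psmc6 in 7, Psmb2 and Psme4 in 6 and Psmg3 in 4, and the called genes of the other lists ranged from 4 (B2m) to 16 (Zfand2a). Neither of the row alternatives left any of these calls.

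Signs reversed only for genes that had not passed the threshold. Psma7 was 0.029 with normexp. Psmc1 was -0.066 with quantile normalization, -0.053 in the authors' table, and -0.022 with the row block and in row 1. Psmb10 was 0.0028 and Psmd7 -0.028 with the row block and in row 1. Psmc3 was 0.010 and Psmd9 -0.018 with averaged probes. Leaving out 1 array gave -0.092 to 0.020 for Psma7, -0.044 to 0.074 for Psmc1, -0.042 to 0.069 for Psmd9, -0.13 to 0.037 for Psmd10, -0.016 to 0.24 for Psme3, -0.0092 to 0.24 for Psmc3ip and -0.29 to 0.050 for Trim63. It gave pair changes of -0.068 to 0.25 (Psmb8 minus Psmb5), -0.39 to -0.076 (Psmb9 minus Psmb6) and -0.052 to 0.19 (Psmb10 minus Psmb7). The causes were not tested.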
